A study of Arabidopsis thaliana with 24 samples.

Results

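The wild-type whole-root line, in which the 35S promoter drives a tagged ribosomal protein, was compared with 3 lines in which a promoter named for a root layer drives the same protein. The members were chosen by their labels: the 2 Col0 35S libraries, and the 6 libraries of the Col0 ACR4, SCR and CO2 lines (2 per line) that carry library numbers of the same run, 8 of the 24 samples in all. All plants were Arabidopsis thaliana with an HF-RPL18 transgene, a ribosomal protein L18 fused to a FLAG-containing tag, so the 35S line is not an untagged control. The labels assign the ACR4 promoter to the columella of the root cap, the SCR promoter to the endodermis and the CO2 promoter to the cortex, whereas 35S is a viral promoter active in most plant cells. Roots of plants in the wild-type Columbia-0 background were harvested 6 days after being put in light, from vertical plates at 22 °C in long days, with about 20 plates per sample. Lines with the same 4 promoters in the background of hyl1, a mutant of a microRNA processing cofactor, were handled alike, and their 8 libraries enter the model and a separate comparison. Tagged ribosomes were captured on an anti-FLAG gel and the RNA on them was sequenced. The SHR (stele) and WER (epidermis) lines have other library numbers and are not in the mean, so the mean of the layer lines holds no line for the vascular core or the epidermis. The labels do not say whether replicates came from separate cultures or how many transformants stand behind a line, so p-values measure the spread between these libraries, which may be technical.

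In this kind of pull-down, an mRNA is recovered when a tagged ribosome sits on it, so a layer promoter is meant to restrict recovery to that layer and the 35S promoter to give the root as a whole. From outside to inside a young Arabidopsis root has root cap, epidermis with root hairs, cortex, endodermis with its Casparian strip and suberin, and the stele, which holds pericycle, xylem and phloem. In bulk libraries, a lower value can come from fewer cells of a type or from less RNA per cell, and these cannot be told apart.

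The tag itself was checked through RPL18B (AT3G05590), the endogenous L18 gene that took the most reads. It had 20363 and 19862 normalised CPM (counts scaled to a common TMM-adjusted library size) in the 35S libraries. The layer libraries had 2190 and 2385 in the ACR4 line, 2701 and 1473 in the SCR line, and 1244 and 3665 in the CO2 line. All 6 layer libraries were far below both 35S libraries, with a fold of 8.85 (log2 fold change 3.15, SE 0.27, edgeR adjusted p = 3.94e-07). Transcripts of the transgene may add to this value. RPL18C (AT5G27850), another L18 gene, had 792 and 707 CPM in the 35S libraries and 368 to 618 in the layer libraries (log2 0.56, SE 0.15, adjusted p = 0.00898), a call lost without 35S replicate 1 (0.49, adjusted p = 0.126).

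The genes of the ACR4 and SCR promoters were highest in their own lines, whereas that of the CO2 promoter was near 0 throughout. CR4 (AT3G59420), the receptor kinase gene also called ACR4, had 155 and 185 CPM in the ACR4 line, 6.88 and 5.95 in the 35S line and 4.41 to 6.71 in the SCR and CO2 libraries. SCR (AT3G54220), a transcription factor gene of the endodermis, had 84 and 35.5 CPM in the SCR line and 10.2 and 10.8 in the 35S line, with 7.01 to 19.1 in the ACR4 and CO2 libraries. The gene named CO2 (AT1G62500) had 0 to 2.64 CPM in all 8 libraries and was not called. Against the mean of the layer lines CR4 was called lower (log2 −1.47, SE 0.21, adjusted p = 4.78e-05), while the call of SCR (−1.03, SE 0.31, adjusted p = 0.0184) was lost without 35S replicate 1 or 2 (−0.98 and −1.07). Scaling by library totals alone also lost the call of SCR (−0.65).

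The counts of the 35S libraries were spread more evenly over transcripts than those of the layer libraries. In the 35S libraries 1117 and 1144 genes held 50% of the counts, against 211 to 740 genes in the layer libraries. The 10 most counted genes held 6.33% ± 0.0691 of the counts in the 35S line (SD, n = 2) and 10.7 to 31.6% in the layer libraries. RPL18B alone made up 2.48% ± 0.0658 of the 35S counts (SD, n = 2), against 0.113 to 0.323%. For each of these shares both 35S libraries lay outside the range of the 6 layer libraries. An exact permutation test over the 28 splits of 2 against 6 libraries gave the smallest two-sided p it allows, 0.0714, so this design cannot pass 0.05. The number of genes with at least 1 count did not separate the lines. It was 28103 and 30265 in the 35S libraries and 28515 to 29651 in the layer libraries (exact permutation test, p = 0.929). Totals were 4686323 and 9614835 counts in the 35S libraries and 5416522 to 8589721 in the layer libraries.

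**Figure D1:**
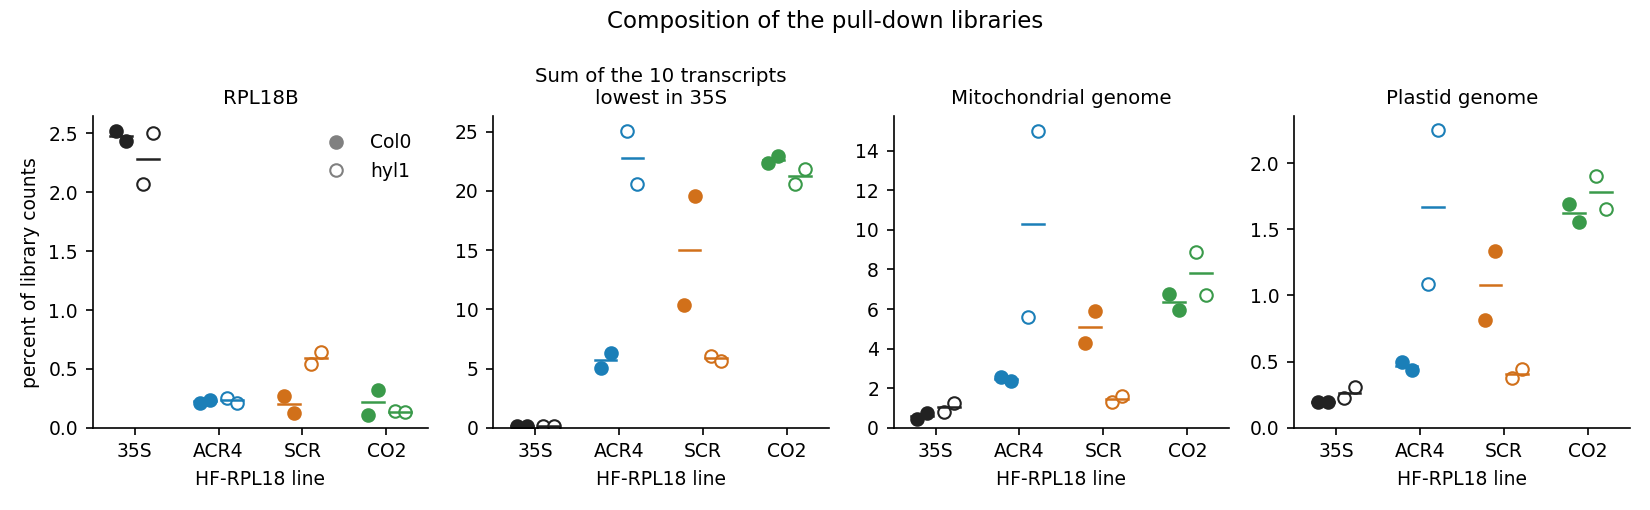
Percent of library counts (vertical axis) in RPL18B, in the 10 transcripts with the largest falls in the 35S line, in the mitochondrial genome and in the plastid genome, by HF-RPL18 line. Filled points are Col0 libraries, open points hyl1 libraries and bars the mean of 2 libraries; RPL18B is highest in the 35S line (2.43 and 2.53% in Col0), where the other shares are lowest.

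In the comparison as a whole, 7049 of 22109 tested genes passed an adjusted p of 0.05 (31.88%), 3901 of them higher in the 35S line (17.64%) and 3148 lower (14.24%). With so many calls, the count of called members in a gene list is read against these percentages. Over all genes tested the median log2 change was −0.0061. Scaled by library totals alone, that median was 0.385 and 81.7% of 8805 calls were higher, against 55.3% with TMM scaling. The count of 7049 was 3682 without 35S replicate 1 and 4318 without 35S replicate 2, where a lone 35S library is assumed to vary like the other groups.

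Among called genes with a mean log2 CPM of at least 2 and both 35S libraries outside the range of the 6 layer libraries, the largest falls in the 35S line included 4 transcripts that were abundant in every layer pull-down. AT5G35200, an ENTH/ANTH/VHS superfamily gene, had 695 and 768 CPM in the 35S libraries. It had 36036 and 45646 CPM in the ACR4 line, 73698 and 154966 in the SCR line, and 173066 and 163313 in the CO2 line. The ranges were far apart, with a log2 fold change of −6.98 (SE 0.38, adjusted p = 1.11e-08), and in share of counts the gene went from 0.0862 and 0.0941% in the 35S libraries to 3.52 to 15.7% in the layer libraries. AT1G64880, annotated as a ribosomal protein S5 family gene, had 301 and 253 CPM in the 35S line against 9207 to 70040 in the layer libraries (log2 −6.55, SE 0.42, adjusted p = 2.11e-08). FTIP1 (AT5G06850), a C2-domain protein gene known for its role in moving the flowering signal FT, had 154 and 159 CPM against 5636 to 23460 (log2 −6.40, SE 0.35, adjusted p = 1.11e-08). AT1G60095, a mannose-binding lectin gene, had 13.4 and 13.8 CPM against 682 to 4144 (log2 −7.01, SE 0.27, adjusted p = 2.56e-10). For each of these 4 transcripts both ACR4 libraries were the lowest of the 6 layer libraries, and even they were well above the 35S line.

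The other 6 of the 10 largest falls had a count per AT5G35200 count that differed by a factor of 1.2 at most between layer libraries. They were the pectin methylesterase gene PME7 (AT1G44980), AT3G27980 and AT1G11590 of the plant invertase/pectin methylesterase inhibitor superfamily, the pseudogene AT4G06586 and the transcribed pseudogenes AT4G09644 and AT2G03910. Each had 0.668 to 1.41 counts per 1000 counts of AT5G35200 in the layer libraries, so they may share reads with it, and their own change is uncertain. FTIP1 followed AT5G35200 as closely (a ratio of 1.16) but with 135 to 156 counts per 1000. Together the 10 transcripts held 0.145 and 0.147% of the 35S counts and 5.05 to 23.0% of the layer counts. Further genes with large falls, chosen after their values were seen, were the class I tRNA synthetase family gene AT4G10320 (140.1 and 186 CPM against 3921 to 19106), the serine synthesis gene PSAT (AT4G35630; 344 and 369 against 6209 to 23886), which overlaps a gene on the opposite strand, and the pyridoxal phosphate-dependent transferase gene AT2G17630 (56.8 and 58.5 against 1127 to 5013).

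Transcripts of the organelle genomes were lower in the 35S line as well. Of 145 tested mitochondrial genes 123 fell and 0 rose, with a median log2 fold change of −2.76, and of 128 tested plastid genes 119 fell and 0 rose, with a median of −2.85. The mitochondrial share of counts was 0.447 and 0.729% in the 35S libraries and 2.37 to 6.78% in the layer libraries. The plastid share was 0.193 and 0.199% against 0.440 to 1.69%. Among the mitochondrial genes of the list, ATMG00020 had 964 and 2093 CPM in the 35S line, 9172 and 7859 in ACR4, 16693 and 22046 in SCR and 22219 and 19025 in CO2 (log2 −3.30, adjusted p = 7.4e-05). The plastid gene ATCG00490 had 144 and 138 CPM in the 35S line, 249 and 222 in ACR4, 456 and 696 in SCR and 849.8 and 853 in CO2 (log2 −1.79, adjusted p = 4.48e-06). As for the transcripts above, the ACR4 line was the layer line nearest to 35S, with list medians of −1.26 against ACR4, −3.20 against SCR and −3.82 against CO2 for the mitochondrial genes, and −1.82, −3.10 and −3.77 for the plastid genes. Organelle ribosomes do not carry the tagged protein, which is a subunit of cytosolic ribosomes.

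The largest rises in the 35S line, by the same rule, were genes of mixed annotation. KIN1 (AT5G15960), a cold- and abscisic acid-induced gene, had 205 and 227.7 CPM in the 35S libraries. Its layer libraries had 13.1 and 16.6 CPM in the ACR4 line, 14.7 and 24.4 in the SCR line and 24.2 and 31.1 in the CO2 line. The 35S line was 10.8-fold higher (log2 3.43, SE 0.22, adjusted p = 2.79e-08). AT5G60460, a gene for the small beta subunit of the Sec61 channel at the endoplasmic reticulum, had 183 and 166 CPM against 9.97 to 31.3 (log2 3.39, SE 0.27, adjusted p = 2.37e-07). AT4G08570, a heavy-metal-associated domain gene, had 55.1 and 55.5 CPM against 1.79 to 11.4 (log2 3.50, SE 0.29, adjusted p = 2.7e-07). Others among the 10 largest rises were the plant defensin gene PDF2.1 (AT2G02120), the cysteine-rich transmembrane module gene AT5G04080, the non-coding RNA AT1G11185 and the uncharacterised protein genes AT1G63310, AT1G04330 and AT5G44005, at log2 fold changes of 3.22 to 3.68. AT5G04080 overlaps a gene on the opposite strand, so its reads may not be its own.

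Among abundant genes, chosen after their values were seen, MT2B (AT5G02380), a metallothionein gene that binds metal ions, had 2922 and 2875 CPM in the 35S line against 191 to 667 in the layer libraries (log2 3.06, SE 0.17, adjusted p = 1.11e-08). The adjacent identifier AT5G02370 followed it closely (2306 and 2198 against 153 to 514), and the pair may share reads. Of 13 plant defensin genes, small antimicrobial peptides, 4 were tested and 3 rose. This list too was chosen after values were seen. PDF2.3 (AT2G02130) had 2026 and 1920 CPM against 123 to 546 and PDF2.2 (AT2G02100) 1165 and 1115 against 78.8 to 275, each with both 35S libraries above every layer library. PDF2.5 (AT5G63660) had 7.05 and 2.63 CPM against 1.97 to 41.8, highest in the SCR line, and was not called.

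**Figure D2:**
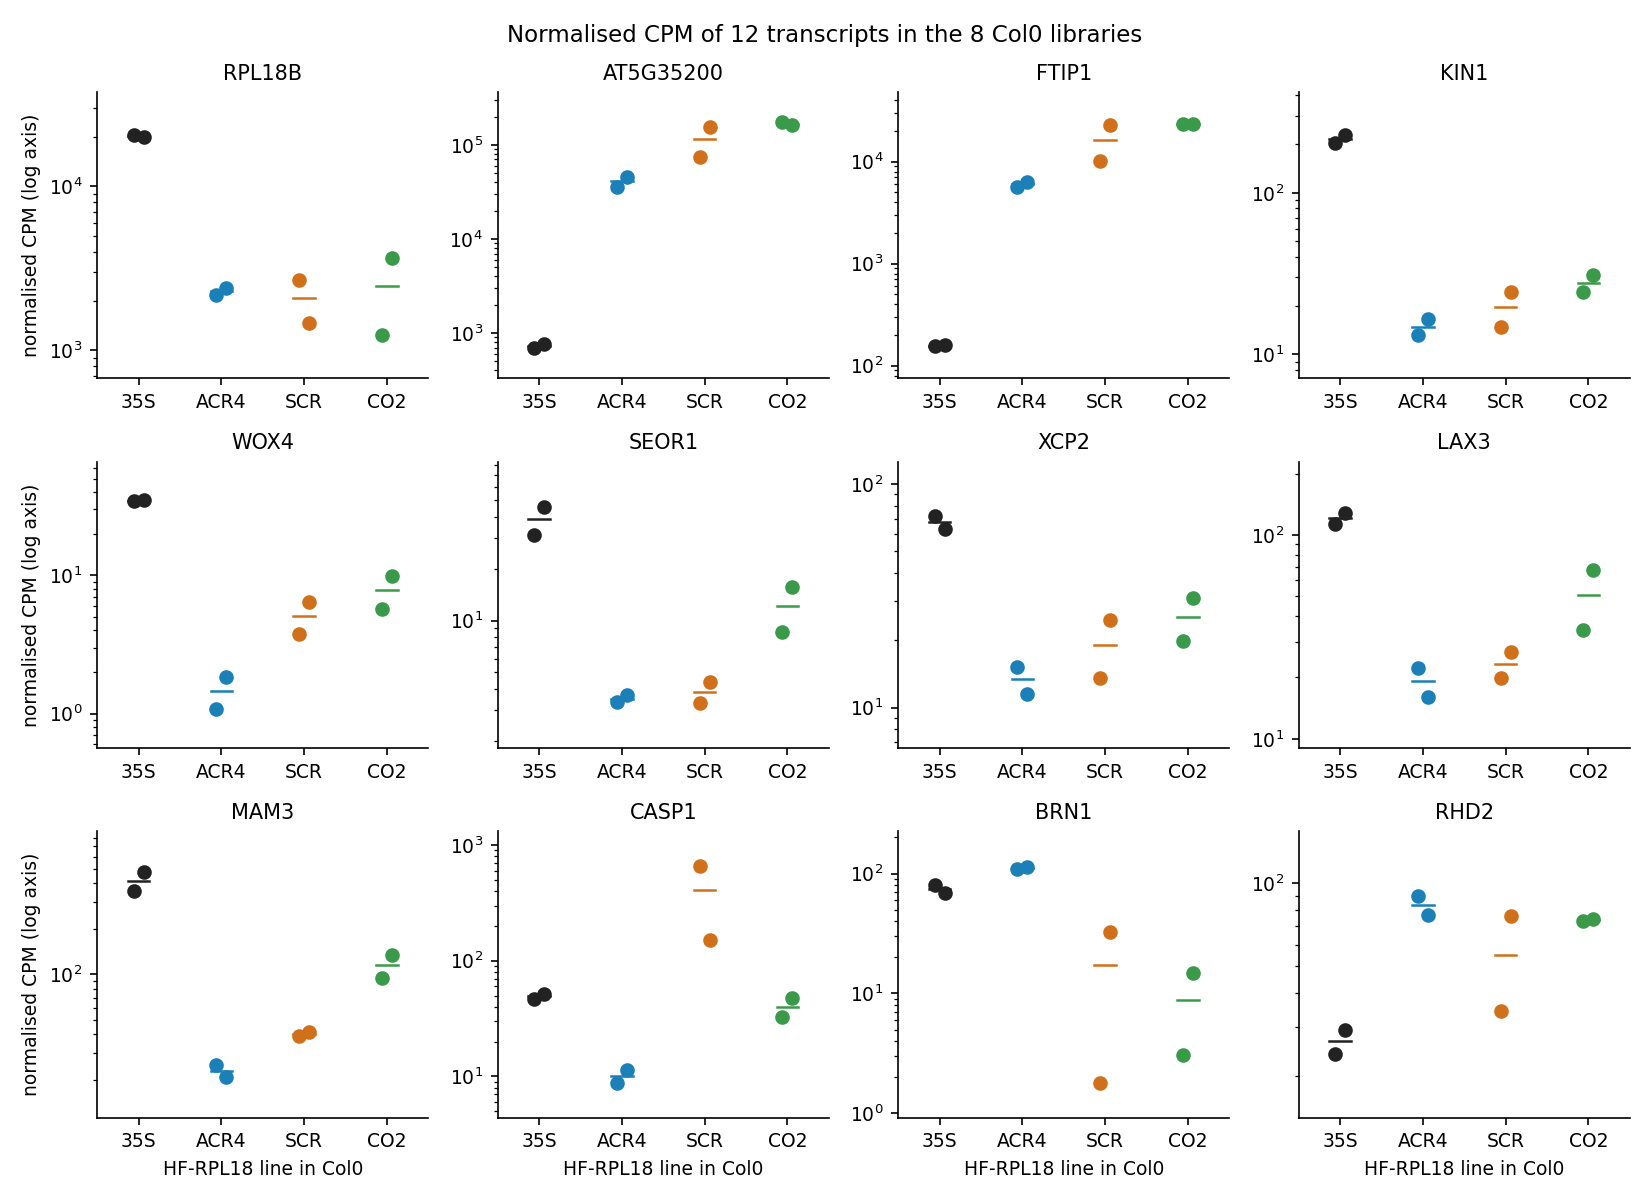
Normalised CPM (log vertical axes) of 12 transcripts in the Col0 35S, ACR4, SCR and CO2 libraries; points are libraries and bars the mean of 2. RPL18B, KIN1, WOX4, SEOR1, XCP2, LAX3 and MAM3 are highest in both 35S libraries, AT5G35200, FTIP1 and RHD2 lowest, and CASP1 and BRN1 peak in the SCR and ACR4 lines.

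Transcript length moved with the direction of change across the whole table. Genes called higher in 35S had a median longest transcript of 1295.5 bases, genes called lower 2365 bases and genes not called 1761.5 bases, over the 20095 tested nuclear protein-coding genes. In 5 bins of about equal size, the median log2 fold change went from 0.57 in the shortest (102 to 1144 bases) through 0.20, 0.04 and −0.12 to −0.37 in the longest (2516 to 16593 bases). The share called higher went from 38.2 to 7.02% and the share called lower from 5.05 to 28.1%. The order of the bins was the same against each layer line and in the hyl1 lines, where the medians ran from 0.42 to −0.18. The part of transcript length in the changes of single genes was not tested, and list medians relative to each gene's length bin are given for nuclear lists where they bear on a result. Beside the lists given below, the median went from 0.63 to 0.39 for root cap genes and from −0.15 to −0.41 for Casparian strip genes. It went from 0.04 to 0.41 for DNA replication genes, from 0.69 to 1.05 for auxin carriers and from 3.03 to 2.46 for defensins.

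**Figure D3:**
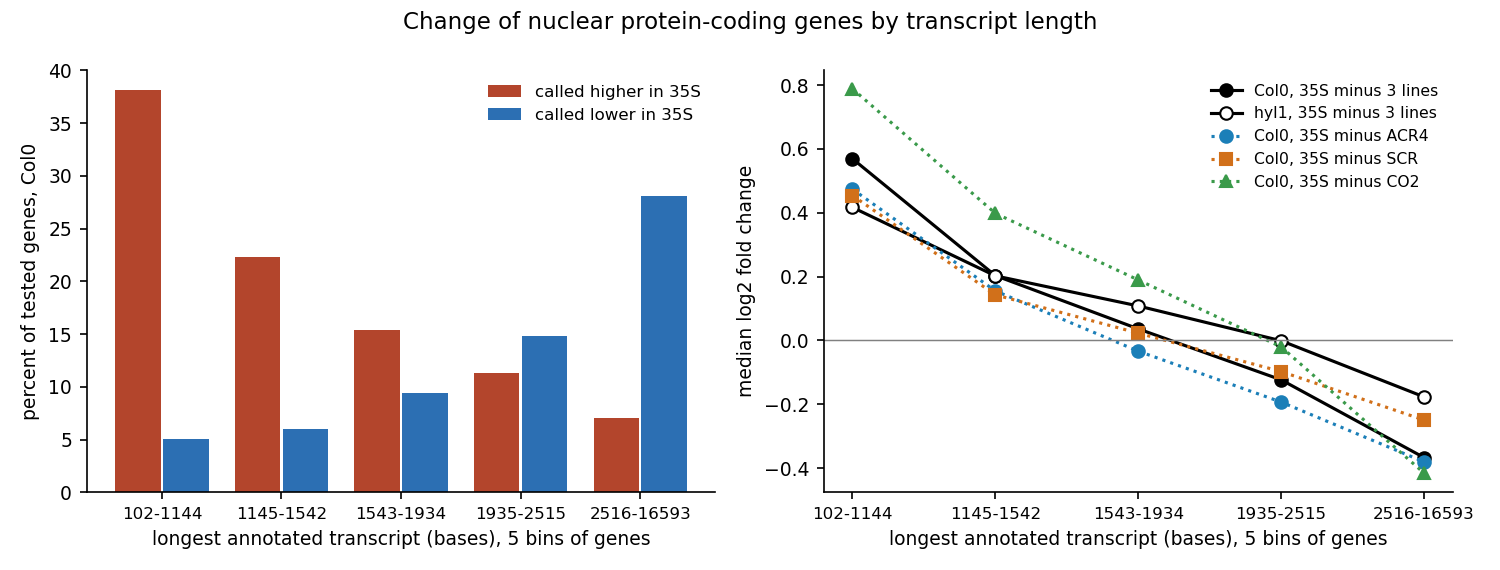
Left, percent of tested nuclear protein-coding genes called higher or lower in Col0 35S in 5 bins of the longest annotated transcript (bases). Right, median log2 fold change per bin for each contrast, falling from the shortest to the longest bin in all 5 contrasts (0.57 to −0.37 in Col0).

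Genes of the stele were higher in the 35S line than in the mean of the layer lines. Of 14 xylem genes 12 rose and 0 fell (median log2 fold change 1.48, or 1.53 relative to length bin). Of 12 phloem genes 7 rose and 0 fell (1.37, or 1.38), and of 16 tested pericycle and vascular genes 9 rose and 0 fell (0.90, or 1.15), against 17.64% called higher among all genes. Both 35S libraries were above all 6 layer libraries for 11 xylem, 5 phloem and 6 pericycle and vascular genes, which held for 16.77% of all genes. With 1 Col0 library left out, 9 to 13 xylem, 5 to 9 phloem and 8 to 11 pericycle and vascular genes rose and 0 fell.

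WOX4 (AT1G46480), a homeobox gene of the vascular stem cells, had 34.4 and 34.7 CPM in the 35S line. It had 1.07 and 1.84 CPM in the ACR4 line, 3.76 and 6.38 in the SCR line and 5.69 and 9.94 in the CO2 line (log2 3.16, SE 0.23, adjusted p = 9.16e-08). Its receptor kinase PXY (AT5G61480), which acts upstream of WOX4, had 44.4 and 45.6 CPM against 7.15 to 19.7 (log2 1.99, SE 0.18, adjusted p = 5.47e-07). Both genes thus had the same order of lines, 35S above CO2, SCR and ACR4. TMO5 (AT3G25710), a transcription factor gene that promotes vascular cell division, had 84.3 and 72.1 CPM against 8.59 to 31.7 (log2 2.33, SE 0.17), and ATHB-15 (AT1G52150), a class III HD-ZIP factor of vascular patterning, 133 and 132 against 16.6 to 61.3 (log2 2.11, SE 0.15). SHR (AT4G37650), which moves from the stele to the endodermis, had 26 and 21.3 CPM against 2.5 to 23.2, so the ranges met (log2 1.099, SE 0.30, adjusted p = 0.00976).

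In the xylem, VND6 (AT5G62380), a master regulator of vessel formation, had 7.74 and 10.5 CPM in the 35S line against 0.654 to 2.48 (log2 3.04, SE 0.31, adjusted p = 1.6e-06). The xylem protease gene XCP2 (AT1G20850) had 71.8 and 63.2 CPM against 11.6 to 31.1 (log2 1.85, SE 0.21, adjusted p = 4.48e-06). ACL5 (AT5G19530), which makes the polyamine thermospermine in xylem cells, had 79 and 79.8 CPM against 6.32 to 30.4 (log2 2.33, SE 0.22). The cellulose synthases of the secondary wall, CESA7, CESA8 and CESA4, rose by 1.44, 1.34 and 1.05 on the log2 scale. VND6, ACL5 and these 3 CESA genes overlap genes on the opposite strand, and the reads of such pairs may not be told apart. The uncalled members were VND7, at 2.21 to 2.75 CPM in the 35S line against 1.11 to 4.27, and the metacaspase gene MC9, whose highest values, 211 and 262 CPM, were in the ACR4 line.

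In the phloem, the sieve-element filament genes SEOR1 (AT3G01680) and SEOA (AT3G01670) had 31.5 and 45.9 CPM against 3.31 to 15.7 and 31.8 and 43.7 against 4.29 to 22.6 (log2 2.83, SE 0.28, and 2.19, SE 0.25). APL (AT1G79430), a regulator of phloem identity, had 26.3 and 27.2 CPM against 2.98 to 9.52 (log2 2.27, SE 0.27, adjusted p = 7.67e-06). SUC2 (AT1G22710), the sucrose loader of companion cells, had 16.7 and 19.4 CPM against 3.82 to 17.2 (log2 1.37, SE 0.32, adjusted p = 0.00359), with 1 CO2 library inside the 35S range. Against single lines, which share the 35S libraries, the phloem median was 1.81 for ACR4, 1.58 for SCR and 0.47 for CO2, and the xylem median 2.06, 1.52 and 0.94. The lines thus stood in the order ACR4, SCR, CO2 and 35S in both lists, and no test was made of that order.

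Carriers of auxin, the hormone that patterns the root, had 4 of 7 members higher and 0 lower. LAX3 (AT1G77690), an influx carrier of vascular and cortical cells, had 113 and 129 CPM in the 35S line against 16 to 67.7 (log2 2.09, SE 0.20, adjusted p = 1.03e-06). The efflux carrier PIN7 (AT1G23080) had 53.2 and 49.9 CPM against 10.1 to 34.2 (log2 1.60, SE 0.17, adjusted p = 2.46e-06), and PIN3 (AT1G70940) 33 and 47.8 against 8.12 to 33.5 (log2 1.29, SE 0.24, adjusted p = 6.57e-04). PIN2 (AT5G57090), the carrier of epidermis and cortex, had its highest values in the ACR4 line, 327 and 289.8 CPM, with 53 and 66.8 in the 35S line, and was not called. AUX1 was called at 0.69 (adjusted p = 0.040), a call lost without 35S replicate 1 (0.87) or 2 (0.50), ACR4 replicate 1 (0.73) or 2 (0.66), or CO2 replicate 1 (0.58).

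Genes for aliphatic glucosinolates, the methionine-derived defence compounds of the Brassicaceae, formed a list chosen after values were seen. Of 16 tested members 14 were higher in the 35S line and 0 lower, with a median log2 fold change of 2.41 (2.37 relative to length bin). MAM3 (AT5G23020), a chain-elongation enzyme, had 358 and 471 CPM in the 35S line. It had 24.9 and 20.9 CPM in the ACR4 line, 38.8 and 41.7 in the SCR line and 94.6 and 134 in the CO2 line (log2 3.13, SE 0.15, adjusted p = 8e-09). BCAT4 (AT3G19710), the aminotransferase that starts the pathway, had 195 and 266 CPM against 14.1 to 80.1 (log2 3.02, SE 0.17), though it overlaps a gene on the opposite strand. MYB28 (AT5G61420), the transcription factor that controls the pathway, had 117 and 103 CPM against 10.6 to 41 (log2 2.54, SE 0.18). The 14 called genes ran from the elongation and core enzymes to the sulfotransferases SOT17 and SOT18, and each had both 35S libraries above all layer libraries. The uncalled members were BCAT3 (log2 0.26) and CYP79F1 (log2 1.2, adjusted p = 0.0609), a near copy of the called CYP79F2 that may share its reads.

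Endodermis genes did not separate the 35S line from the mean, and the layer lines lay on both sides of it. Of 13 Casparian strip genes 2 rose and 1 fell (median −0.15), and of 13 suberin genes 0 rose and 1 fell (median 0.05), the fatty acid elongase gene KCS20 at −0.86, lost without 35S replicate 2 (−0.72). The call of KCS20 was also lost with library totals (−0.48). CASP1 (AT2G36100), a scaffold protein of the Casparian strip, had 47.1 and 51.7 CPM in the 35S line, 8.7 and 11.4 in the ACR4 line, 661 and 151 in the SCR line and 32.9 and 47.4 in the CO2 line. GPAT5 (AT3G11430), an acyltransferase of suberin synthesis, had 25.3 and 35.3 CPM in the 35S line, 4.65 and 4.18 in ACR4, 243 and 73.2 in SCR and 15.5 and 23 in CO2. Both genes were highest in the SCR line, lowest in the ACR4 line, and close in the 35S and CO2 lines. Against single lines the Casparian strip median was 2.202 for ACR4, −2.68 for SCR and 0.30 for CO2. The SCR replicates differed, with summed levels over the Casparian strip genes of 2610 and 719 CPM, and the median was 0.34 without SCR replicate 1 and −0.37 without SCR replicate 2. The median was also 0.22 with library totals. The suberin median was 0.35 without SCR replicate 1, −0.11 without SCR replicate 2 and −0.0024 with DESeq2.

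The called members of the Casparian strip list were unlike the rest. MGP (AT1G03840) and NUC (AT5G44160), zinc-finger genes that SHR and SCR regulate, rose by 1.798 (SE 0.21) and 1.49 (SE 0.24), with 38.9 and 43.7 CPM for MGP in the 35S line against 3.2 to 19.1. RBOHF (AT1G64060), an NADPH oxidase that supplies superoxide for lignin polymerisation, had 31.5 and 40.8 CPM against 57.4 to 168 (log2 −1.43, SE 0.21, adjusted p = 9.23e-05). Both 35S libraries were below all layer libraries, the highest of which was in the CO2 line.

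Root cap genes were between the ACR4 line and the other 2 layer lines. Of 12 members 2 rose and 0 fell (median 0.63), with medians of −1.09 against ACR4, 1.201 against SCR and 2.00 against CO2. BRN1 (AT1G33280) and BRN2 (AT4G10350), NAC factors of root cap maturation, had 79.8 and 68.9 and 49.6 and 29.5 CPM in the 35S line. Their ACR4 libraries had 109.9 and 114 and 69.8 and 73.7 CPM, and in the SCR and CO2 libraries 1.8 to 32.9 and 0.601 to 16.7. Their log2 fold changes of 1.53 (SE 0.50, adjusted p = 0.0291) and 1.63 (SE 0.51, adjusted p = 0.0227) were lost as calls without 35S replicate 1 (1.43 and 1.23, adjusted p = 0.166 and 0.244) or CO2 replicate 1 (1.29 and 1.39). BRN1 was also lost without 35S replicate 2 (1.64) or ACR4 replicate 1 (1.53). Both BRN1 and BRN2 lost their calls with DESeq2 (1.47 and 1.58), with the 8 Col0 libraries alone (1.52 and 1.63) and with all 24 libraries (1.45 and 1.55). The share of root cap genes called higher was near the 17.64% of all genes. SCR replicate 2 had more root cap RNA than SCR replicate 1, with a summed level of 1585 against 94.4 CPM, and without SCR replicate 1 or 2 the list median was 0.38 or 1.31. With 1 Col0 library left out, 0 to 9 members rose. TGG4 (AT1G47600), a root myrosinase gene, showed the same, with 24 and 641 CPM in the SCR line, 570.4 and 604 in the 35S line and 3234 and 3362 in the ACR4 line.

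**Figure D4:**
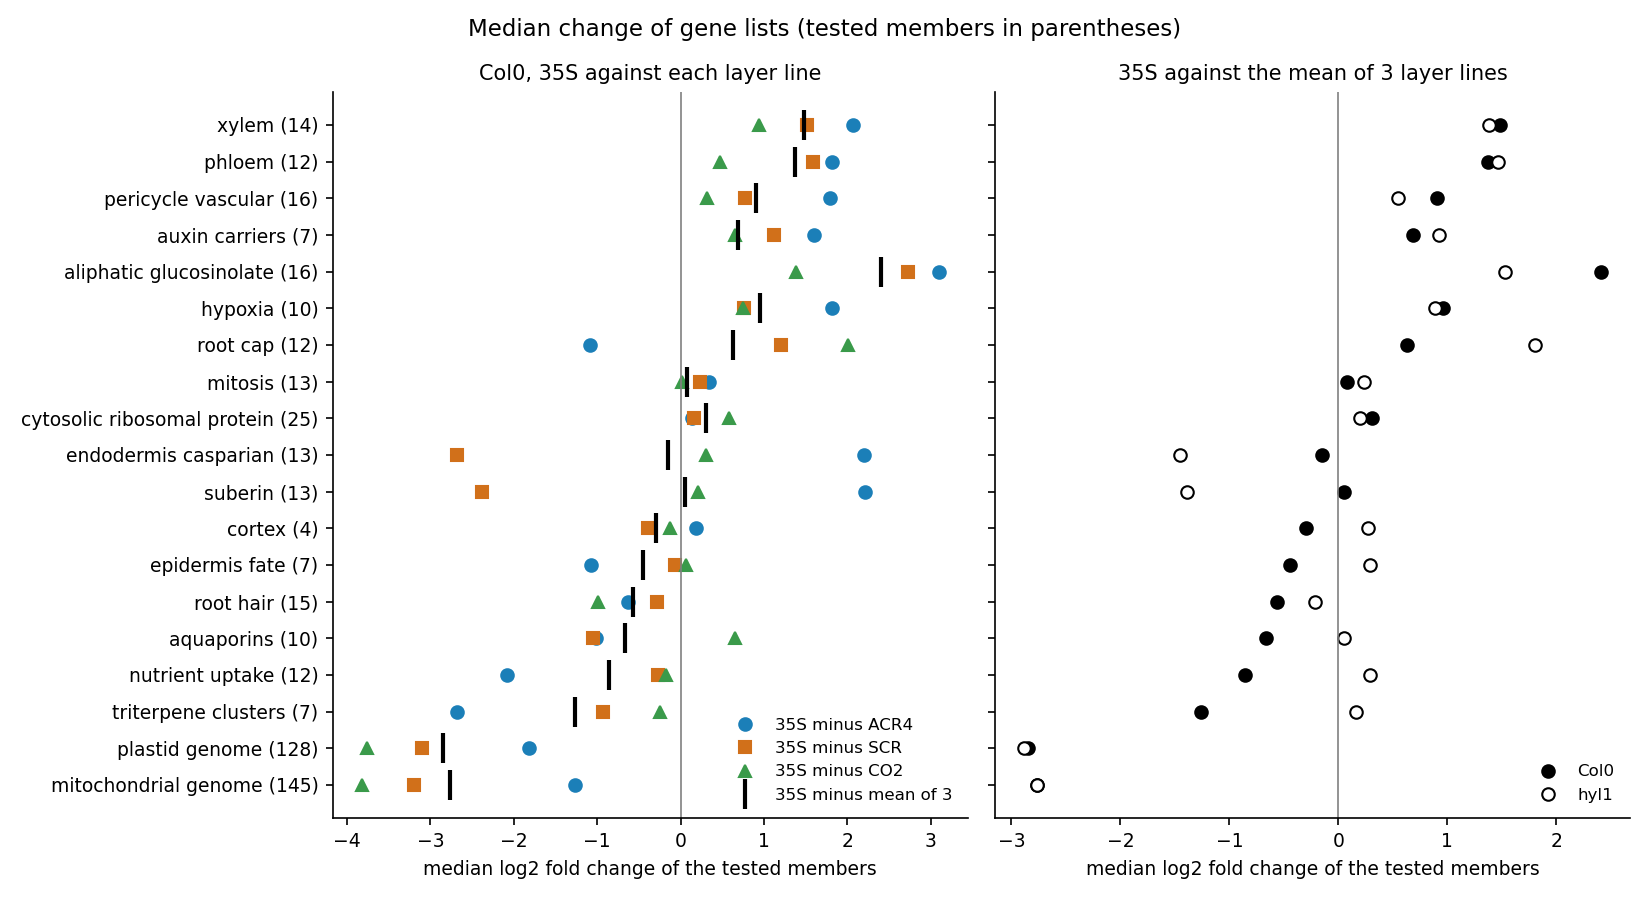
Median log2 fold change of the tested members of 19 gene lists (number in parentheses). Left, Col0 35S minus each layer line (points) and minus their mean (bars), where xylem and phloem genes lie above 0 against all 3 lines and endodermis genes on both sides (2.202 against ACR4, −2.68 against SCR); right, 35S minus the mean of the layer lines in Col0 and hyl1.

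Some genes of root hairs, epidermis and uptake were lower in the 35S line than in the mean of the layer lines. Of 15 root hair genes 4 fell and 0 rose (median −0.57), of 7 epidermal fate genes 2 fell, of 12 tested nutrient uptake genes 5 fell, and of 10 aquaporin genes 3 fell, against 14.24% of all genes called lower. Of 7 iron uptake genes 1 fell, a share close to that of all genes. These counts moved with single libraries: without 35S replicate 2 they were 3 root hair, 0 epidermal fate, 2 nutrient uptake and 0 aquaporin genes, and without 35S replicate 1 they were 2, 1, 1 and 1. Without SCR replicate 1 they were 6, 3, 10 and 5. With library totals 4 root hair, 1 epidermal fate, 3 nutrient uptake and 0 aquaporin genes fell, and 1 epidermal fate gene rose. Against single lines the epidermal fate median was −1.07 for ACR4, −0.068 for SCR and 0.062 for CO2. In the same order the iron uptake median was −1.40, 0.31 and 0.013, and the root hair median −0.64, −0.28 and −0.99. RHD2 (AT5G51060), the NADPH oxidase of root hair growth, had 24.1 and 29.4 CPM in the 35S line and 34.4 to 90.4 in the layer libraries (log2 −1.38, SE 0.25, adjusted p = 5e-04). CSLD3 (AT3G03050), a cellulose synthase-like enzyme of root hair tips, had 98.2 and 94.4 CPM against 116 to 270.2 (log2 −0.95, SE 0.21, adjusted p = 0.00286). Both kept the call with each of the 8 Col0 libraries left out, and both had every layer library above the 35S line. LRL3 and IRE, also of root hairs, and GL2 and EGL3, which set epidermal fate, were called at −1.30, −1.57, −0.72 and −1.64. LRL3, IRE and GL2 lost their calls without 35S replicate 1 (−1.20, −1.16 and −0.65), LRL3, GL2 and EGL3 without 35S replicate 2 (−1.40, −0.78 and −1.33), and GL2 without ACR4 replicate 1 (−0.67). With library totals the call of GL2 was lost too (−0.32). The iron uptake gene that fell was ABCG37 (−1.13), lost without 35S replicate 1 (−0.95).

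Several nutrient carriers had their highest values in the ACR4 line. NRT1.1 (AT1G12110), the nitrate transporter and sensor, had 1660 and 1069 CPM in the ACR4 line, 116 and 434 in the SCR line, 194 and 328 in the CO2 line and 236.6 and 277 in the 35S line, and was not called in the mean. The ammonium transporter gene AMT1;1 (AT4G13510) had 68 and 69.2 CPM in the 35S line, 447 and 402 in the ACR4 line and 40.9 to 143 in the other layer libraries (log2 −1.04, SE 0.31, adjusted p = 0.0171). The phosphate transporter gene PHT1;1 followed the same order (log2 −1.13, adjusted p = 0.0132). The list median was −2.08 against ACR4, −0.27 against SCR and −0.18 against CO2. Without 35S replicate 1 or 2 the calls of AMT1;1 (−1.02 and −1.05) and PHT1;1 (−0.95 and −1.31) were lost, and between 1 and 10 members fell when 1 Col0 library was left out. With library totals the calls of AMT1;1 and PHT1;1 were lost too (−0.63 and −0.71). AMT1;1 overlaps a gene on the opposite strand.

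The triterpene genes of the thalianol and marneral clusters, which make root-specific metabolites, had 3 of 7 members lower (median −1.26). Against single lines 7 of 7 were called lower than in ACR4, and 0 than in SCR or CO2 (medians −2.68, −0.93 and −0.24). Of all 22109 genes 3808 were called lower than in ACR4, 2499 than in SCR and 3103 than in CO2. THAS1 (AT5G48010), the thalianol synthase, had 155 and 167 CPM in the 35S line, 967 and 784 in ACR4, 91.8 and 521 in SCR and 334 and 218 in CO2 (log2 −1.39, SE 0.42, adjusted p = 0.0177). The marneral synthase gene MRN1 (AT5G42600) had 3.96 and 7.9 CPM in the 35S line and 4.96 to 75 in the layer libraries (log2 −2.50, SE 0.72, adjusted p = 0.0145). Both calls were lost without 35S replicate 1 (−1.32 and −2.13) or 2 (−1.43 and −3.13), as was that of CYP705A5 (−1.28 and −1.22), which left 0 members called, and without SCR replicate 2 the list median was −0.49. With library totals the call of CYP705A5 was lost too (−0.84). Of the aquaporins TIP2;2, TIP1;1 and PIP2;2 fell by 0.79, 0.81 and 0.69 on the log2 scale. These calls were lost without 35S replicate 2 (−0.67, −0.84 and −0.60) or with library totals (−0.39, −0.43 and −0.30). The calls of TIP1;1 and PIP2;2 were also lost without 35S replicate 1 (−0.75 and −0.75), ACR4 replicate 1 (−0.79 and −0.68) or CO2 replicate 2 (−0.70 and −0.61), and that of PIP2;2 without ACR4 replicate 2 (−0.67). Aquaporins were higher in 35S than in the CO2 line (median 0.65) and lower than in the ACR4 and SCR lines (−1.02 and −1.05).

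Among genes of cell division, 5 of 13 mitosis genes rose and 0 fell. The cyclin gene CYCB1;4 (AT2G26760) had 43.4 and 38.7 CPM in the 35S line against 13.7 to 25.9 (log2 1.19, SE 0.21, adjusted p = 4.02e-04), and KNOLLE (AT1G08560), the syntaxin of cell plate formation, 44.2 and 48 against 18.3 to 36.1 (log2 0.82, SE 0.18, adjusted p = 0.00236). KNOLLE, like TCH2 and CASP1, overlaps a gene on the opposite strand. Without 35S replicate 2, 3 rose and 1 fell. With all 24 libraries in the fit 2 rose, and CYCB1;4 was no longer called (1.0976, adjusted p = 0.366). The list median was 0.08, or −0.01 in that fit, and 0 of 5 DNA replication genes were called (median 0.04, −0.01 with DESeq2). Of 6 stem cell niche genes 1 was called, UPB1, higher at 1.15, which was lost without 35S replicate 1 (0.86).

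Of 10 genes of the low-oxygen response 5 rose and 0 fell (median 0.96). The sucrose synthase gene SUS1 (AT5G20830) had 58.8 and 76.1 CPM in the 35S line against 9.22 to 42.4 (log2 1.95, SE 0.21, adjusted p = 2.77e-06), and HB1 (AT2G16060), a haemoglobin that scavenges nitric oxide, 79.3 and 82.2 against 12.4 to 67.1 (log2 1.64, SE 0.19, adjusted p = 6.6e-06). The count was 3 without 35S replicate 1 or 2, 8 without SCR replicate 1 and 2 with all 24 libraries. ADH1, the alcohol dehydrogenase gene (log2 1.55), lost its call without 35S replicate 1 (1.23), and the ethylene response factor gene HRE1 (1.36) without 35S replicate 1 (1.43) or 2 (1.31), ACR4 replicate 1 (1.28) or CO2 replicate 2 (1.13). The regulators LBD41, HRE2 and PCO1 and the fermentation gene PDC1 were not called. Of 8 wound and touch genes 2 rose, among them the calmodulin-like TCH2 (AT5G37770), with 99.1 and 132 CPM against 22.4 to 62.2 (log2 1.41, SE 0.24, adjusted p = 3.46e-04). The other was the jasmonate-response repressor gene JAZ5 (log2 1.89), lost without 35S replicate 1 or 2 (2.18 and 1.49) or ACR4 replicate 2 (1.78). In this list the layer replicates differed. ZAT10, a rapidly induced zinc-finger gene, had 78.1 and 14.1 CPM in ACR4, 97.4 and 18.3 in SCR, 133 and 13.7 in CO2, and 106 and 139 in the 35S line. Replicate 1 was thus the higher in each Col0 layer line and replicate 2 in the 35S line. Whether replicate number moved these genes was not tested.

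Of 8 tested genes of shoot photosynthesis 2 rose, with summed levels of 47.5 and 51.4 CPM in the 35S line and 20.4 to 41.6 in the layer libraries, and RBCS2B at 0 and 0.425 CPM in the 35S line. Of 25 tested cytosolic ribosomal protein genes other than RPL18B and RPL18C, 9 rose and 3 fell (median 0.31, but −0.17 relative to length bin). Of 10 reference genes 3 rose, and UBC9 (AT4G27960), with 169 and 183 CPM against 76.2 to 151, kept its call with each Col0 library left out (log2 0.82, SE 0.17, adjusted p = 0.00157). ACT7 and UBQ10 were called at 0.65 and 0.56, but both calls were lost without 35S replicate 2 (0.56 and 0.50), which left 1 of the 3, and that of UBQ10 also without 35S replicate 1 (0.64). Of 4 tested heat shock genes 1 was called, HSP70-4 at 0.76, lost without 35S replicate 1 or 2 (0.96 and 0.55), ACR4 replicate 1 (0.67) or CO2 replicate 1 (0.70). None of the 4 cortex genes was called (edgeR, median −0.29, or 0.10 with library totals). Their median was 0.18 against ACR4, −0.39 against SCR and −0.12 against CO2, where 1 was called higher and 0 lower. Cortex genes were not highest in the CO2 line. Their summed level was 3471 and 4345 CPM in CO2, against 7278 and 8568 in 35S and 18917.5 and 17470 in ACR4. Their median level was 8.95 and 10.5 CPM in CO2, against 19.6 and 13.2 in SCR.

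Against single layer lines, 7482 genes differed from ACR4 (33.84%), 4857 from SCR (21.97%) and 6824 from CO2 (30.87%), with the 35S libraries shared by all 3 contrasts. In all 3 contrasts 1280 genes were called higher and 861 lower. These counts fell to 4446, 2834 and 4154 without 35S replicate 1, and to 3096 for SCR without 35S replicate 2, 4338 for ACR4 without ACR4 replicate 1 and 4373 for CO2 without CO2 replicate 1.

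The hyl1 lines gave the contrast of the same 4 promoters in 8 other libraries. These libraries shared the filter and the estimate of the spread with the wild-type contrast. Their layer mean was not an equal reference, because the hyl1 ACR4 line differed from the Col0 ACR4 line. The median level of root cap genes was 9.48 and 11.4 CPM in hyl1 ACR4, against 89.9 and 93.9 in Col0 ACR4. AT5G35200 had 214315 and 189235 CPM in hyl1 ACR4, against 36036 and 45646 in Col0 ACR4. CR4 was still high in hyl1 ACR4, at 1210 and 1084 CPM. The reason was not tested. With the 8 Col0 libraries alone in the fit, the wild-type count was 5211. HYL1 (AT1G09700), the double-stranded RNA binding protein of microRNA processing, ranged from 5.85 to 12.8 CPM over the 8 Col0 libraries and from 1.17 to 7.85 over the 8 hyl1 libraries, so the ranges met. The hyl1 35S line differed from the mean of the hyl1 ACR4, SCR and CO2 lines in 5916 genes (26.76%), 3351 higher (15.16%) and 2565 lower (11.60%). Of the 3901 genes higher in Col0, 2243 were also called higher in hyl1, which is 57.5% of the Col0 genes and 66.9% of the hyl1 genes, and 12 were called lower. Of the 3148 lower genes 1757 were called lower in hyl1 (55.8% and 68.5%) and 26 higher. Signs were the same for 94.8% of the higher and 90.1% of the lower genes, against 53.6% of all genes positive and 46.4% negative in hyl1. The hyl1 count of 5916 was 3540 without hyl1 35S replicate 1 and 2614 without hyl1 35S replicate 2.

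The tag gene, the dominant transcript and the stele and glucosinolate genes had the same directions in hyl1. RPL18B had 16660 and 20390 CPM in the hyl1 35S libraries and 1534 to 5840 in the hyl1 layer libraries, and AT5G35200 had 732 and 665 against 36012 to 214315. Of xylem genes 13 of 14 rose (median 1.38), of phloem genes 9 of 12 (1.47), of pericycle and vascular genes 6 of 16 (0.54) and of aliphatic glucosinolate genes 15 of 16 (1.53), with 0 lower in each. Organelle medians were −2.89 for the plastid and −2.77 for the mitochondrial genome. Other lists stood elsewhere: root cap genes had 10 of 12 higher (1.81), suberin genes 12 of 13 lower (−1.39) and Casparian strip genes 8 of 13 lower (−1.45). For root cap genes the 35S lines were alike, with median levels of 47.2 and 48.4 CPM in hyl1 and 44.4 and 35.9 in Col0. The ACR4 lines were not, with 9.48 and 11.4 CPM in hyl1 and 89.9 and 93.9 in Col0. Casparian strip medians in ACR4 were 14.99 and 14.83 CPM in hyl1 and 5.01 and 4.43 in Col0. These shifts thus cannot be read as changes of the 35S line alone. Root hair genes had 3 higher and 2 lower (−0.22), epidermal fate genes 1 higher and 1 lower (0.29), aquaporins 1 higher and 0 lower (0.05), and iron uptake genes 1 higher and 0 lower (−0.14). Nutrient uptake genes had 1 higher and 2 lower (0.29), and the triterpene median was 0.16. The difference between genotypes was not tested for whole lists. Tested gene by gene, it was called for 0 of 12 root cap, 0 of 13 suberin and 0 of 13 Casparian strip genes. It was also called for 0 root hair, epidermal fate, aquaporin, iron uptake, nutrient uptake and triterpene genes. The separate counts of these lists thus do not show that a member differed between genotypes. By the test of the difference between genotypes, 72 of 22109 genes differed (0.3257%), 38 of them higher in hyl1. That count was 0 without Col0 35S replicate 1 or 2, 660 without Col0 SCR replicate 2 and 1361 without Col0 SCR replicate 1.

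**Figure D5:**
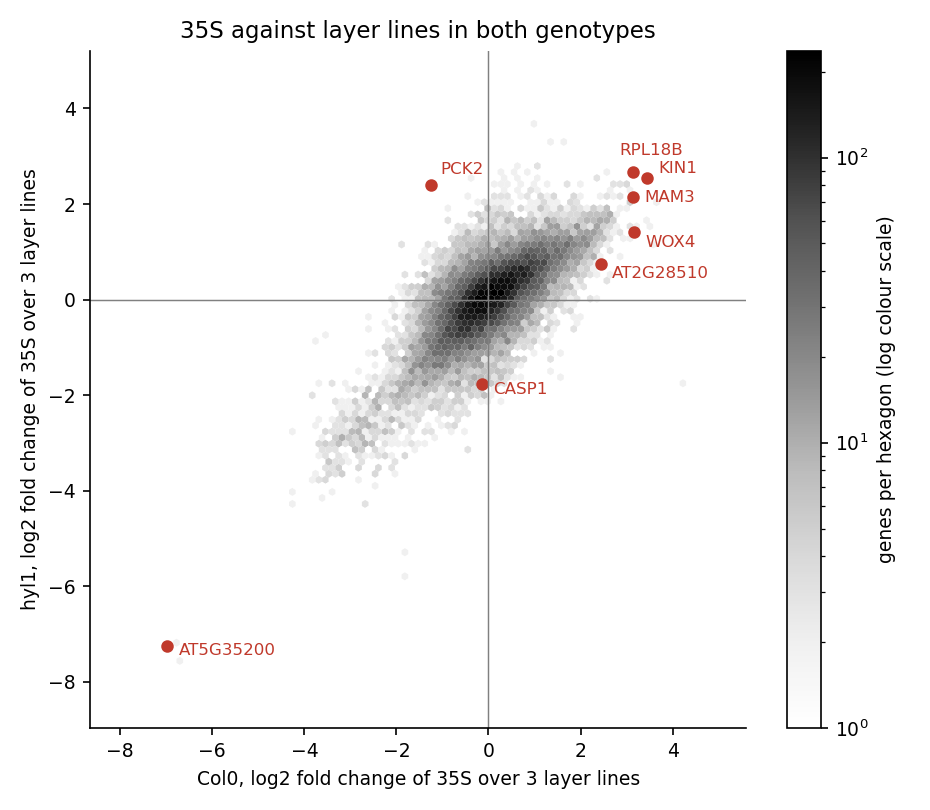
Log2 fold change of the 35S line over the mean of the ACR4, SCR and CO2 lines in Col0 (horizontal) and hyl1 (vertical) for 22109 tested genes; hexagon shade is the number of genes on a log colour scale and red points are named genes. AT5G35200 lies at the low end of both axes (−6.98 in Col0), RPL18B, KIN1, MAM3 and WOX4 at the high end, and PCK2 has opposite signs.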

How the data were processed

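The values were whole-number counts of reads per gene, deposited by the authors. Per the submitters' processing notes, the tools were TopHat2 2.0.11, Bowtie2 2.2.1.0, CASAVA 1.8.2 and, from the Subread package, featureCounts, with the TAIR10 build. Their order, the featureCounts version and the use of strand are not stated in the labels or headers used. Gene symbols and transcript lengths came from RefSeq's TAIR10.1 annotation, which matched 32835 of 33602 identifiers (97.7%), and no coordinates were taken from it.

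Counts were tested with edgeR 4.0.16 in R 4.3.3: filterByExpr with a minimum count of 10 and a total of 15, TMM scaling, and the quasi-likelihood F test over the 16 libraries of the run (8 groups, 8 residual degrees of freedom). The Benjamini-Hochberg adjustment ran over 22109 genes, called at an adjusted p under 0.05. On simulated data 50 of 100 genes changed 2-fold and 100 of 100 changed 4-fold were recovered, with 10 false calls. Apart from these genes, raised in Col0 35S, each simulated gene had the same mean in all lines, and all genes shared a single dispersion. These rates do not describe a comparison in which 31.88% of genes were called. DESeq2 1.42.0, other scalings and filters, and fits without each library were alternatives.

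Genes were named by rule: those of the tag and promoters, the 10 largest rises and falls with both 35S libraries outside the layer range and a mean log2 CPM of at least 2, and up to 4 called members per list with the largest change. Other list members were named from their role or pattern after their values were seen. The members and lists were chosen with earlier results of these data known. The aliphatic glucosinolate and defensin lists, MT2B, AT5G02370, PSAT, AT4G10320 and AT2G17630 were chosen after values were seen. A gene that the rule names is not reported here. Totals of 4686323 to 9614835 counts per Col0 library limit the precision of genes with few counts.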

Additional observations from a re-analysis of the deposited data

Results flagged for a closer look

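The contrast of the 35S line with the mean of the layer lines differed between hyl1 and Col0 in 72 genes by the edgeR test of the difference itself, with 2858 at an unadjusted p under 0.05. The 5 smallest p among genes at or above a mean log2 CPM of 2 belonged to PER4 (AT1G14540), a peroxidase gene, with a difference of 2.99 on the log2 scale (hyl1 minus Col0, adjusted p = 0.0168), AT3G19390 with 2.32 (adjusted p = 0.0168), PCK2 (AT5G65690), a phosphoenolpyruvate carboxykinase gene of gluconeogenesis, with 3.63, AT5G48430 with 3.35 and the Dof zinc-finger gene AT2G28510 with −1.69 (adjusted p = 0.0227 for these 3). PCK2 had 18.9 and 17.2 CPM in Col0 35S against 15 to 150 in the Col0 layer libraries, and 36.9 and 36.5 in hyl1 35S against 3.29 to 17.7. AT2G28510 had 140 and 112 CPM in Col0 35S against 9.78 to 41.5, and 81.9 and 103 in hyl1 35S against 41.4 to 73. Both 35S groups were above every layer library of their genotype for AT2G28510, but for PCK2 only hyl1 was. The difference of each of the 5 genes was lost without Col0 35S replicate 1 (adjusted p = 0.240) or 2 (0.0566 to 0.134), hyl1 35S replicate 1 (0.217 to 0.257), or hyl1 SCR replicate 1 or 2 (0.0504 to 0.0616), and those of some of them without hyl1 35S replicate 2, hyl1 ACR4 replicate 2 or hyl1 CO2 replicate 1 or 2.

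In lines outside the comparison, which have other library numbers, AT5G35200 held 7.87 and 6.80% of the counts in the Col0 SHR libraries and 0.795 and 0.857% in the Col0 WER libraries, against 0.0862 and 0.0941% in the Col0 35S libraries. No group had the 4 libraries needed to single out one sample within a group.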

How the results depend on the processing

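Of 102 genes named by the rule, without those of the genotype difference, 60 kept their direction and call under every alternative run. Genes named outside the rule were not followed in this way. The wild-type count of 7049 was 3523 with all 24 libraries in the fit, 1507 when the test asked for more than a log2 change of 1, and 3682 to 8404 with 1 library left out. With 1 library left out, the counts ran from 4338 to 8592 against ACR4, 2834 to 5059 against SCR, 4154 to 8179 against CO2, 2614 to 7230 in hyl1 and 0 to 1361 for the difference between genotypes. Library totals gave 9518 calls in hyl1, and the difference between genotypes had 470 with DESeq2 and 335 with no filter on low counts. With library totals the share of calls that were higher was 71.3% against ACR4 (49.1% with TMM), 76.3% against SCR (48.5%), 79.3% against CO2 (54.5%) and 84.3% in hyl1 (56.6%). Over 16442 genes the differences between replicates 1 and 2 were weakly correlated at most (−0.145 to 0.061 over 6 pairs of Col0 groups). A replicate block gave 6909 calls, 6791 of them shared. Single lists can still move with replicate number. Summed wound and touch levels were higher in replicate 1 in each Col0 layer line and each hyl1 line, from 243 and 219 CPM in hyl1 35S to 555 and 97.1 in Col0 CO2. In Col0 35S they were 370 and 480 CPM. Among genes that were not called, with 1 library left out CO2 ran from −1.23 to 1.25, PYK10 from −0.18 to 0.060 and MCM2 from −0.089 to 0.21. CO2 turned to 0.045 with library totals and PYK10 to 0.33, and MCM2 to −0.033 with all 24 libraries. The causes were not tested.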
